A study of Danio rerio with 7 samples.

Results

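The open chromatin near 10 genes of bone morphogenetic protein (BMP) and Alk1 signalling was examined in sorted endothelial cells of the zebrafish embryo: the ligands *bmp2b* and *bmp4*, the receptors *acvrl1*, *bmpr2a* and *bmpr2b*, the signal transducers *smad1* and *smad5*, the inhibitory *smad6b* and *smad7*, and the target gene *id1*. Their peaks were those for which the deposited table of differential ATAC-seq peaks prints one of these symbols as the nearest promoter. This gave 83 of 44025 listed peaks, for 9 of the 10 genes. No peak carried the symbol *smad6b*, but 12 peaks were printed as LOC564395, whose RefSeq accession belongs to *smad6b* today. These were kept apart from the 83.

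ATAC-seq marks open chromatin by letting the transposase Tn5 insert sequencing adapters where DNA is accessible. Cells were sorted by flow cytometry from wild-type embryos that carry the Tg(*kdrl*:GFP)s843 transgene, in which the *kdrl* promoter drives GFP in endothelium. The *kdrl*:GFP+ cells came from the gate of higher GFP signal and the *kdrl*:GFP- cells from the GFP-negative gate of the same kind of embryo, at 26 to 27 h post fertilization (hpf), with 40000 to 50000 cells per library. Per the labels there were 3 libraries of each population and 1 genomic DNA control, from 30000 cells at 28 to 30 hpf. The groups that the authors compared held fewer *kdrl*:GFP+ and more *kdrl*:GFP- libraries than these labels list. Embryos were pooled for sorting, so no library stands for a single animal, and *kdrl*:GFP- cells are a mixture of other tissues.

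BMP ligands are secreted dimers that bring type I and type II receptors together at the cell surface. The type II receptor phosphorylates the type I receptor, which in turn phosphorylates Smad1 and Smad5, and these enter the nucleus with Smad4 and switch on targets such as the *id* genes, while Smad6 and Smad7 hold the pathway back. Endothelium has its own type I receptor, Acvrl1 (Alk1), which responds to Bmp9 and Bmp10. Loss of Acvrl1 enlarges cranial vessels in zebrafish embryos, and mutations of human ACVRL1 cause hereditary haemorrhagic telangiectasia.

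For each peak the table gives a group value, the log2 of the mean normalised reads of a population. The difference used throughout is the *kdrl*:GFP+ value minus the *kdrl*:GFP- value on the log2 scale, so a difference of 3 is 8-fold. The values are the authors' means over libraries, with no spread and no value per library. No difference was therefore tested here, and "higher" and "lower" describe *kdrl*:GFP+ means relative to *kdrl*:GFP- means. Since the table lists differential peaks alone, sites equally open in both populations are outside these counts. In bulk cells, more cells with an open site and a more open site per cell cannot be told apart. At 1450 peaks the *kdrl*:GFP+ value was -0.36 and at 1499 peaks the *kdrl*:GFP- value was 0.22, each the lowest in its column. A difference at such a peak rests on that shared value, as it did at 6 of the 83 (7.23%, beside 6.7% of all peaks). At 3 more of the 83 the *kdrl*:GFP+ value was below 1 without being the lowest.

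The labels of the populations were set against marker genes. Of 138 peaks near endothelial genes, 121 were higher in *kdrl*:GFP+ cells, with a median difference of 3.52. Of 111 peaks near neural genes 9 were higher, or 8.11%, beside 44.7% of all listed peaks. Of 11 near muscle genes 4 were higher, or 36.4%, with 2 above 3 and 2 below -3. With so few peaks and a share near that of all peaks, the muscle genes say little about the labels. Peaks near blood genes were also mostly higher, 16 of 18, and 9 of these 16 lay near *tal1* and *lmo2*, which endothelial progenitors share. The other 7 lay near the blood transcription factor genes *gata1a* (1 peak) and *spi1b* (2) and the neutrophil gene *mpx* (4). The globin gene *hbbe3*, the haem enzyme gene *alas2* and the leukocyte gene *lcp1* had no listed peak. The part of blood cells in the values below was not tested.

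*kdrl*:GFP+ cells had the higher mean at 39 of the 83 peaks and the lower mean at 44. That is 47.0% higher, beside 44.7% of all listed peaks. A difference above 3 was seen at 14 of the 83, or 16.9%, beside 17.8% of all peaks. A difference below -3 was seen at 16, or 19.3%, beside 13.3%. As a group the genes therefore lay near the background in the share of higher peaks. The median difference was -1.18, beside -1.19 over all peaks. No listed peak has a difference smaller than 0.76 in size, and higher and lower peaks were nearly equal in number. The sign of the median of the 83 therefore turned with the choice of peaks. The gene *smad7* held 37 of the 83 peaks. Without it 26 of 46 peaks, or 56.5%, were higher, and the median was 1.31.

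**Figure D1:**
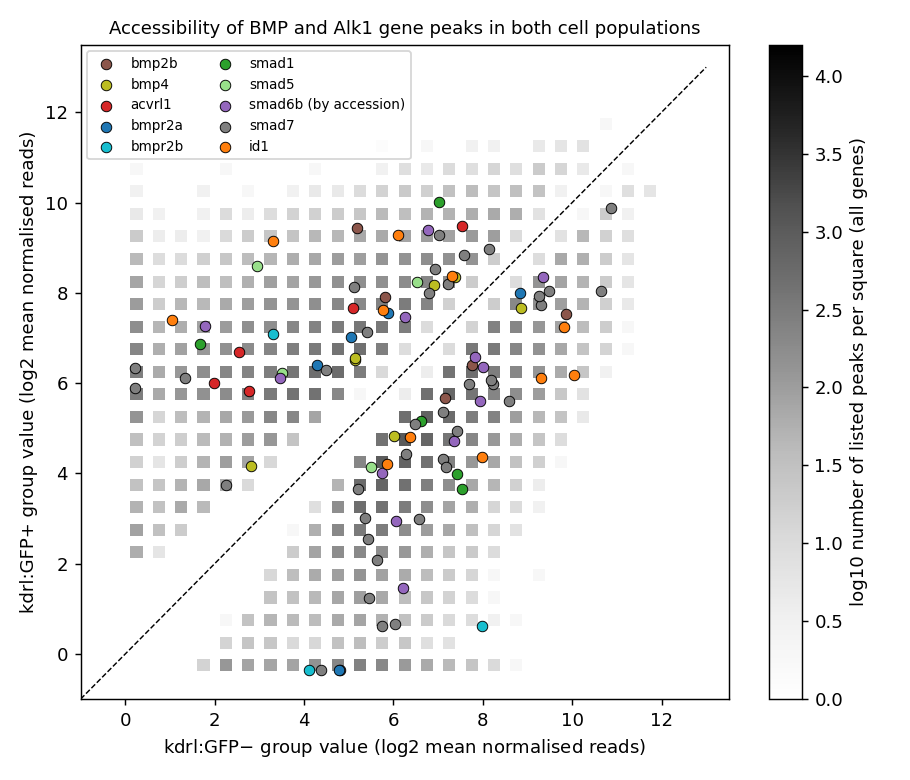
Group value of each peak in *kdrl*:GFP- cells (x axis) and *kdrl*:GFP+ cells (y axis), both as log2 of mean normalised reads, with gene peaks as coloured points over all 44025 listed peaks as grey squares, shaded by log10 of their number. Points above the dashed line of equal values are higher in *kdrl*:GFP+ cells, as 39 of 83 are, and points on the lowest level of an axis rest on the shared lowest value.

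None of the 83 peaks was annotated to a promoter, and none lay within 1 kb of its nearest promoter. Promoter peaks made up 2.04% of the table, or 899 peaks, and 3.20% of all listed peaks, or 1410, lay within 1 kb. With shares this small, few of 83 peaks would fall there, so their absence says little about these genes. The gene peaks were intergenic in 68 cases and intronic in 13, with 1 in an exon and 1 at a transcription end. Of the intergenic peaks 29 of 68 were higher, or 42.6%, beside 42.9% of all intergenic peaks. Of the intronic peaks 9 of 13 were higher, or 69.2%, beside 45.7% of all intronic peaks. By distance, 11 of 23 peaks within 20 kb of the promoter were higher (all peaks, 48.8%), and so were 9 of 23 beyond 100 kb (all peaks, 39.0%).

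Some peaks inside these genes were assigned by the table to another, nearer promoter. Set against the exon positions on the Zv9 genome build, 24 peaks overlapped 6 of the genes, and 9 of them carried another symbol. The gene *smad6b* was not placed, so its intronic peaks, described below, are outside this count. Of the 24 peaks 17 were higher, or 70.8%, beside 48.9% of all peaks inside any gene of up to 500 kb in the deposited gene table. A difference above 3 was seen at 10 of the 24, or 41.7%, beside 21.5%. Of these 10, 4 lay inside *bmpr2b* and 4 inside *smad5*, and none inside *bmpr2a* or *smad7*. A difference below -3 was seen at 3 of the 24, or 12.5%, beside 13.3% of all listed peaks. All 3 lay inside *bmpr2b*. The median difference inside the genes was 2.58, beside -1.19 over all listed peaks.

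**Figure D2:**
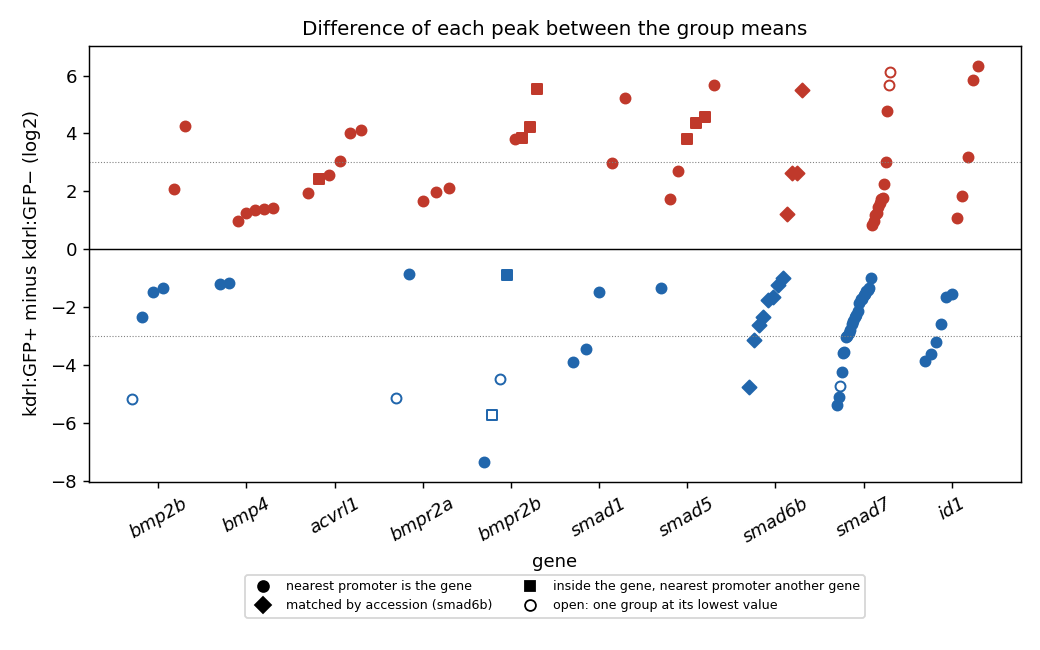
Difference between the group values (y axis, *kdrl*:GFP+ minus *kdrl*:GFP-, log2) of each peak, by gene (x axis), with higher peaks in red, lower peaks in blue and dotted lines at 3 and -3. Open symbols rest on the lowest value of a group, squares lie inside the gene but carry another symbol, and diamonds are the 12 *smad6b* peaks found by accession; the *acvrl1* peaks are all red, from 1.93 to 4.13.

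Among the ligands, *bmp2b*, known for its role in dorsoventral patterning of the zebrafish gastrula, occupies chromosome 20, bases 46426801 to 46432520 (minus strand). It had 6 peaks, all intergenic and all on the 3′ side of the gene, from 23.9 to 52.6 kb from the start site. The pair nearest the gene was higher and the 4 farther peaks were lower. The nearest, at 46408286 to 46409041, had a *kdrl*:GFP+ value of 9.44 beside a *kdrl*:GFP- value of 5.19, a difference of 4.25 or 19.0-fold. Its *kdrl*:GFP+ value exceeded that of 97.7% of listed peaks. The next, at 46404162 to 46404655, was higher by 2.09. The widest, at 46389439 to 46390654, was open in both populations but lower in *kdrl*:GFP+ cells, at 7.53 against 9.86. A neighbour at 46388691 to 46388911 was at the lowest *kdrl*:GFP+ value, beside 4.80 in *kdrl*:GFP- cells, for a difference of -5.16.

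The second ligand gene, *bmp4*, occupies chromosome 17, bases 51094217 to 51116246 (plus strand). It had 7 peaks, none inside the gene, of which 5 were higher. Its differences were small throughout, from -1.19 to 1.42. None passed 3 in either direction. The largest positive difference was at the peak nearest the gene, at 51092044 to 51092442, 1.97 kb upstream of the start, with 6.57 in *kdrl*:GFP+ cells against 5.15 in *kdrl*:GFP- cells. The most negative was 37.6 kb upstream, at 51056202 to 51056946, with 7.66 against 8.85.

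The receptor gene *acvrl1* was the one member at which every peak was higher in *kdrl*:GFP+ cells. It occupies chromosome 23, bases 28076290 to 28097572 (minus strand). All 5 of its peaks were higher, with a median difference of 3.05. Of these 3 passed 3, or 60%, beside 17.8% of all listed peaks. Of the 558 genes with 5 listed peaks, 91 or 16.3% had all of them higher, so this pattern was not rare in the table. The peak inside intron 1, at 28093524 to 28093949, had 6.68 against 2.55, a difference of 4.13 or 17.6-fold. It lies 3.84 kb from the start site.

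The other 4 *acvrl1* peaks lay upstream, over a stretch of 48.1 kb. The farthest, 64.7 kb from the start at 28162159 to 28162444, had 5.99 against 1.99. The most open, at 28151592 to 28153272, is 1681 bases wide and 54.9 kb upstream, with 9.48 against 7.55. It was accessible in both populations and gave the smallest difference, 1.93. The remaining pair, 16.9 and 23.3 kb upstream, had differences of 3.05 and 2.57. A further peak in intron 10, at 28079333 to 28079733, carries the symbol of the neighbouring receptor gene *acvr1b*. It too was higher, with 5.27 against 2.83, so that 6 of 6 peaks were higher once it was counted.

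The type II receptor genes *bmpr2a* and *bmpr2b* differed from *acvrl1* in holding peaks of both directions. The gene *bmpr2a* occupies chromosome 6, bases 12709571 to 12763264 (minus strand). Both peaks inside it were higher. The peak over exon 8, at 12721971 to 12722397, had 6.40 against 4.29, a difference of 2.11. The peak over exon 7, at 12728900 to 12729351, had 7.03 against 5.05, a difference of 1.98. The peak nearest its start, 2.57 kb upstream at 12765365 to 12766306, was open in both populations, with a *kdrl*:GFP- value of 8.84 and a difference of -0.84. The most negative peak lay 121 kb from the start on the 3′ side, at 12642529 to 12642882, with the lowest *kdrl*:GFP+ value beside 4.78, a difference of -5.14.

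The gene *bmpr2b* spans 151 kb of chromosome 9, bases 13235992 to 13387395 (plus strand), and held the most negative difference of all 83 peaks. In intron 3, at 13315649 to 13316661, the *kdrl*:GFP+ value was 0.63 and the *kdrl*:GFP- value 7.97. The difference was -7.35, or 163-fold, and 0.202% of listed peaks were more negative. Its *kdrl*:GFP+ value was close to the lowest and was the same at 122 listed peaks, so the size of this fold rests on a value near the bottom of the scale. In intron 1 a peak at 13287381 to 13287840 went the other way, with 7.09 against 3.30, a difference of 3.79. Also in intron 1, 13267230 to 13267609 was at the lowest *kdrl*:GFP+ value beside 4.12, a difference of -4.48.

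A further 5 peaks inside *bmpr2b* carry the symbol si:dkey-56k23.2, and 3 of these were higher. In intron 3, 13346850 to 13347188 had 6.21 against 0.69, a difference of 5.52 or 46.0-fold. That *kdrl*:GFP- value was close to the lowest, so the size of this fold rests on the bottom of the scale. Also in intron 3, 13332276 to 13332711 was higher by 3.86, and in intron 12, 13386421 to 13386781 was higher by 4.21. The lower pair was in intron 3. At 13329988 to 13330591 the difference was -0.90, and at 13342140 to 13342462 it was -5.73, on the lowest *kdrl*:GFP+ value. In all, 4 of the 8 peaks inside *bmpr2b* were higher and 4 lower, so that large differences of both signs stood within a single intron.

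**Figure D3:**
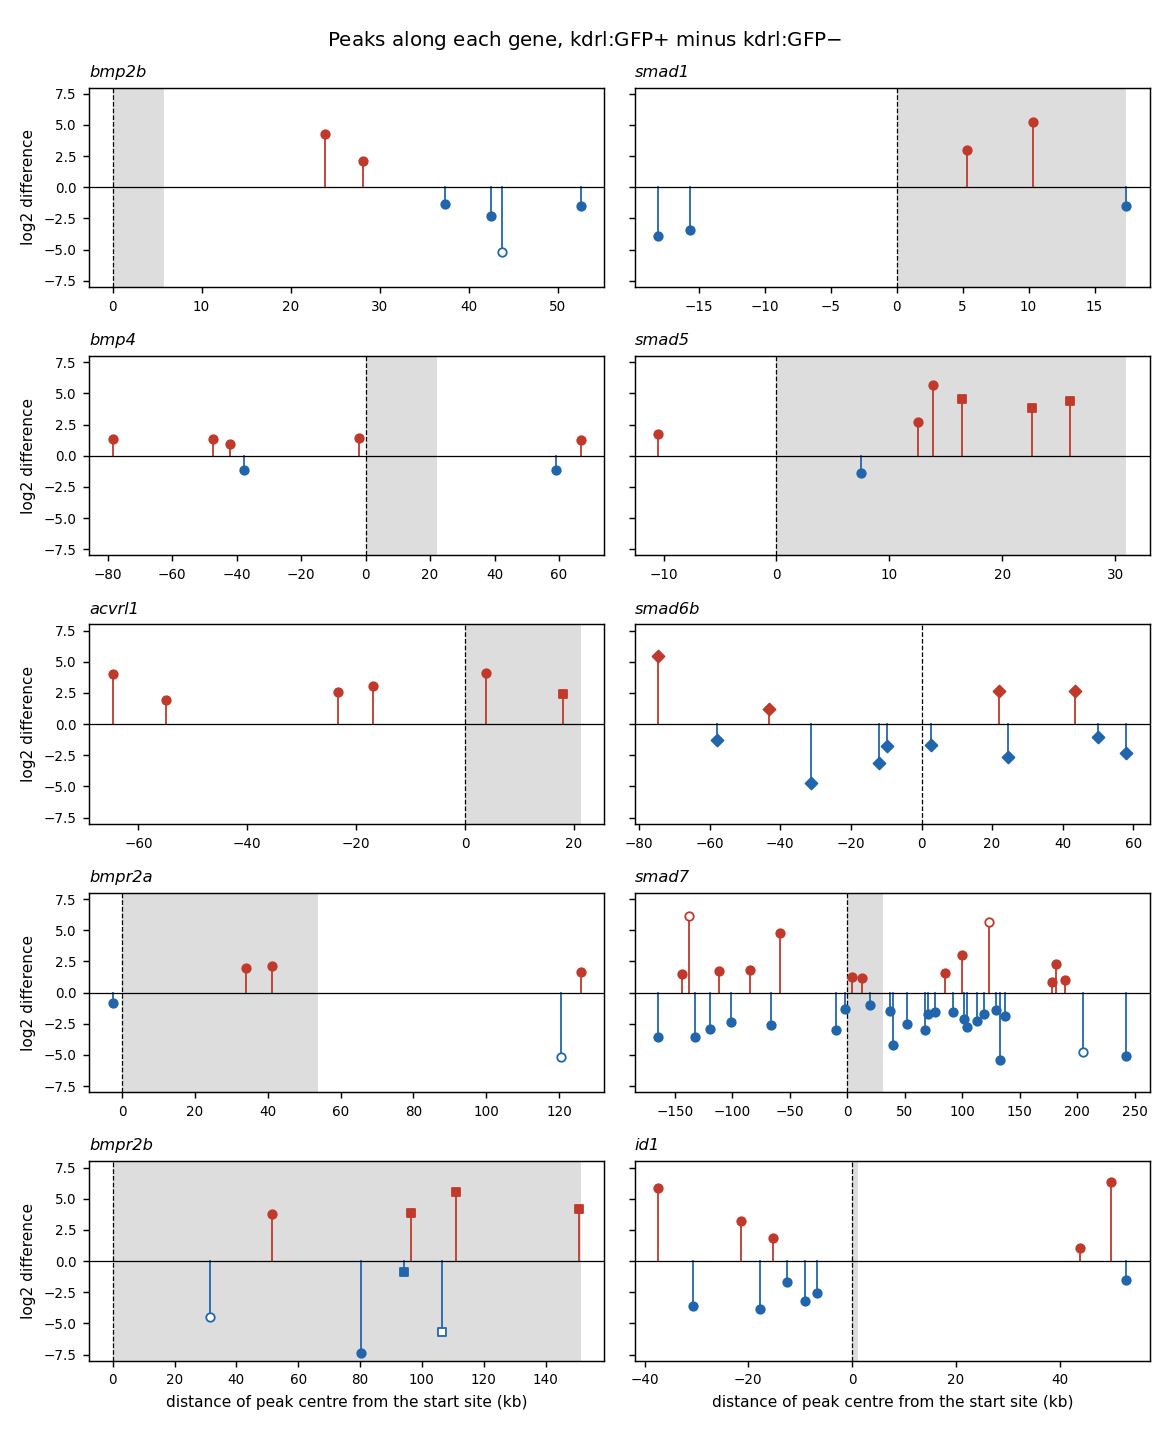
Difference of each peak (y axis, *kdrl*:GFP+ minus *kdrl*:GFP-, log2) against the distance of its centre from the start site of the gene (x axis, kb, negative upstream), in 1 panel per gene, with the gene shaded where its position was known; symbols are as in the plot of differences by gene. Lines at *acvrl1* point up at each of 6 peaks, those inside *bmpr2b* point both ways (4 of 8 up), and at *smad1* the introns are higher and the upstream peaks lower.

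Smad1 and Smad5 are the transducers that the activated receptors phosphorylate. The gene *smad1* occupies chromosome 1, bases 35606532 to 35623897 (minus strand), and all 5 of its peaks were within 20 kb of the start. In intron 1, 35618167 to 35618931 had 10.01 against 7.02, a difference of 2.99. This *kdrl*:GFP+ value exceeded that of 99.1% of listed peaks. In intron 3, 35613365 to 35613717 had 6.87 against 1.66, a difference of 5.21 or 37.0-fold. The peak at the end of transcription, at 35606254 to 35606712, was lower, with 5.16 against 6.63.

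The pair of *smad1* peaks upstream was lower by more than 8-fold. At 35641723 to 35642214, 18.1 kb upstream, the values were 3.64 and 7.53, a difference of -3.88. At 35639160 to 35639878, 15.6 kb upstream, the difference was -3.45. Higher peaks thus lay in the introns, and lower ones upstream and at the 3′ end.

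The gene *smad5* occupies chromosome 14, bases 27476298 to 27507294 (minus strand). Of its 4 peaks 3 were higher. In intron 2, 27493191 to 27493703 had 8.61 against 2.94, a difference of 5.67 or 50.9-fold. Also in intron 2, 27494621 to 27494986 was higher by 2.72, and 27499582 to 27500071 was lower, at -1.36. A peak 10.5 kb upstream was higher by 1.72.

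Towards its 3′ end *smad5* held 3 more peaks that carry the symbol *syvn1*, all of them higher by more than 8-fold. The peak over exon 3, at 27490177 to 27491476, is 1300 bases wide, with 10.33 against 5.76, a difference of 4.56. Its *kdrl*:GFP+ value exceeded that of 99.5% of listed peaks. At the edge of exon 5, 27484513 to 27484812 was higher by 3.82. At the edge of exon 6, 27481173 to 27481419 was higher by 4.36, on a *kdrl*:GFP- value of 0.90, close to the lowest. With these, added after the data were seen, 6 of 7 peaks were higher and 4 passed 3, whereas the printed symbol alone gave 1 above 3. Of the 6 peaks inside *smad5*, 5 were higher and 4 above 3. Among all peaks inside any gene of up to 500 kb, 48.9% were higher and 21.5% above 3.

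Smad6 and Smad7 inhibit BMP signalling. The 12 peaks of *smad6b* found by accession lie on chromosome 18, and 4 of them were higher, or 33.3%, beside 44.7% of all listed peaks. The largest difference was at 19354121 to 19354535, 74.6 kb upstream, with 7.27 against 1.78, or 5.49. The most negative was 31.4 kb upstream, at 19397337 to 19397692, with 1.47 against 6.22, or -4.76. The table annotates 5 of the 12 peaks to introns. The one in intron 1, at 19431216 to 19432173, was lower by 1.65 on the log2 scale. Of the 4 in intron 3, 19450382 to 19451187 was higher at 9.40 against 6.78, and 19472114 to 19472468 was higher by 2.64. Between these, 19453208 to 19453913 was lower, with a difference of -2.62. The last, at 19478045 to 19479533, was open in both populations, at 8.35 against 9.35.

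The gene *smad7*, at bases 3658167 to 3689369 of chromosome 21 (minus strand), had 37 peaks over a stretch of 408 kb. This was more than 99.7% of the 9030 genes that had any listed peak, of which the median was 3. Of the 37 peaks 13 were higher, or 35.1%, beside 44.7% of all listed peaks. Beyond 100 kb of the promoter 8 of 21 were higher, or 38.1%, beside 39.0% of all peaks so far away. Within 20 kb 2 of 5 were higher, beside 48.8% of all peaks. By position, 5 of 12 upstream peaks, 2 of 3 inside the gene and 6 of 22 beyond its 3′ end were higher. The directions alternated along the chromosome in 19 runs, the longest of which was 7 lower peaks in a row, from 3612202 to 3670865.

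Peaks inside *smad7* differed little between the populations. In intron 2, 3684971 to 3685889 had 8.83 against 7.58, a difference of 1.25. In intron 3, 3676030 to 3676723 had 7.99 against 6.80. Also in intron 3, the widest peak, 2370 bases at 3668496 to 3670865, had 9.88 against 10.87. Both of its values were among the highest of the table, above 98.9% and 99.8% of peaks in the respective column.

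Of the 11 *smad7* peaks beyond 3 or -3, 9 lay more than 50 kb from the gene. The other 2 were lower: 3649136 to 3649517, 8.65 kb beyond its 3′ end, had 1.23 against 5.46, a difference of -4.23, and 3699261 to 3699955, 10.2 kb upstream of the start, had a difference of -3.03. The most positive, 6.11 at 3826907 to 3827207, 138 kb upstream, rests on the lowest *kdrl*:GFP- value, as does the 5.67 at 3565538 to 3565856. The largest that does not was 4.79, at 3747457 to 3747835, 58.3 kb upstream, with 6.12 against 1.34. The most negative was -5.37, at 3556032 to 3556744, 133 kb from the start on the 3′ side, with 0.65 against 6.02, a *kdrl*:GFP+ value close to the lowest.

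The gene *id1*, a direct BMP target in many vertebrate cells, encodes a helix-loop-helix protein without a DNA-binding domain. It occupies chromosome 11, bases 19124533 to 19125641 (minus strand) and had 11 peaks, none inside the gene. Of these 5 were higher, or 45.5%, beside 44.7% of all listed peaks. In each direction 3 of the 11, or 27.3%, passed 3, beside 17.8% of all listed peaks above 3 and 13.3% below -3. The largest difference was 49.8 kb from the start on the 3′ side, at 19075573 to 19076011, with 7.40 against 1.05, or 6.34. That *kdrl*:GFP- value was low, above only 4.78% of those listed, so the size of this fold rests on the bottom of the scale. The next largest difference was 37.4 kb upstream, at 19162679 to 19163365, with 9.15 against 3.31, or 5.84. Another large one, 21.4 kb upstream at 19146693 to 19147390, had 9.29 against 6.10.

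The 3 *id1* peaks nearest its start were all lower in *kdrl*:GFP+ cells. They lay 6.85, 9.09 and 12.5 kb upstream, with differences of -2.58, -3.19 and -1.64. The most negative peak was 17.7 kb upstream, at 19142913 to 19143857, with 6.18 against 10.03, or -3.85. That *kdrl*:GFP- value exceeded 98.9% of those listed. Peaks of opposite direction thus alternated upstream of *id1*, with the lower ones closest to the gene.

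The other genes of the BMP pathway were taken as a list of 68, of which 48 had a listed peak. Of their 284 peaks 89 were higher in *kdrl*:GFP+ cells, or 31.3%, against 47.0% of the 83 peaks and 44.7% of all peaks. A difference above 3 was seen at 33 of the 284, or 11.6%, beside 17.8% of all peaks. One below -3 was seen at 49, or 17.3%, beside 13.3%. By role, 33 of 59 peaks near genes listed as ligands were higher. The listed ligands include *bmp1a*, which encodes a protease and not a ligand, with 2 of 7 peaks higher. Near type I receptors 7 of 34 were higher, near type II receptors 4 of 10 and near co-receptors 2 of 17. Of the peaks near other Smads 3 of 4 were higher, near targets 11 of 65 and near extracellular or intracellular inhibitors 29 of 95. All peaks were higher at 9 of the 48 genes, or 18.8%, beside 29.5% of all genes with a listed peak, and 6 of the 9 had only 1 or 2 peaks. All were lower at 14, or 29.2%, beside 23.7%. These shares were not tested against each other.

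**Figure D4:**
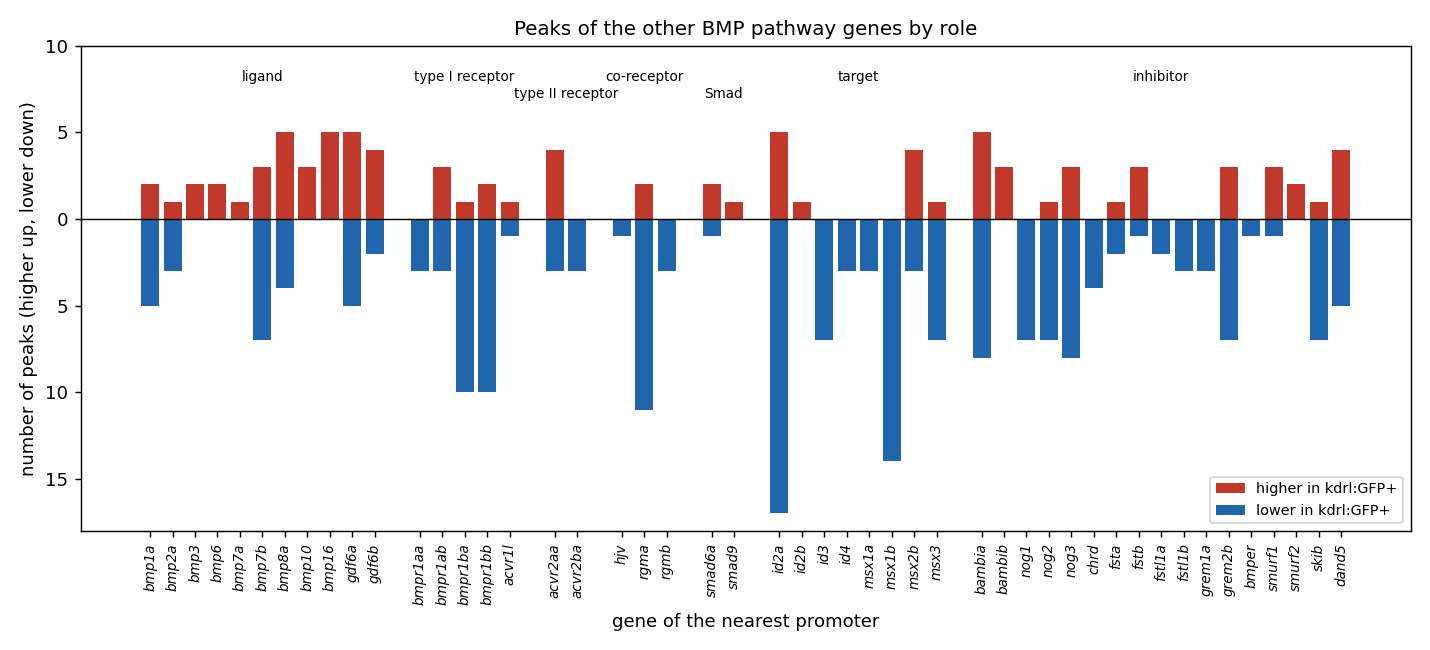
Number of peaks higher (red, upwards) and lower (blue, downwards) in *kdrl*:GFP+ cells (y axis) for each of the 48 other BMP pathway genes with a listed peak (x axis), grouped by role. Bars of target genes point mostly down, with 11 of 65 peaks higher, whereas genes listed as ligands, with the protease gene *bmp1a* among them, have 33 of 59 higher.

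Within 20 kb of a promoter these genes had 98 peaks, of which 26, from 18 genes, passed 3 in either direction. Of the 98, 11 were above 3, or 11.2%, beside 20.4% of all peaks within that distance. Below -3 were 15, or 15.3%, beside 12.1%. Among ligands all 4 were higher: *bmp6* (3.81), *bmp8a* (3.55), *bmp16* (4.32) and *gdf6b* (3.40). At any distance 13 of the 59 ligand peaks were above 3 and 4 below -3. Of these, *bmp8a* had 4 above 3 and 2 below -3 among its 9 peaks. The most positive difference within 20 kb was in an intron of *acvr1l*, a type I receptor gene of the early embryo, with 6.72 against 0.90, or 5.82. This *kdrl*:GFP- value was close to the lowest, and the other *acvr1l* peak was lower, at -1.85. At *acvrl1* the largest difference was smaller, at 4.13. All 5 of its peaks were higher, as at 16.3% of the genes with 5 listed peaks. Another type I receptor gene, *bmpr1ab*, had intronic peaks at -4.15 and -3.20, and the type II receptor gene *acvr2ba* had 1 at -4.82. At any distance *bmpr1ab* had 6 peaks, 3 higher and 3 lower, with 2 above 3 and 3 below -3.

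Among the Smads and targets, the inhibitory *smad6a* had a peak 6.65 kb upstream with a difference of 3.97. The target peaks of this kind, at *id2a* (-3.47), *msx1b* (3 peaks, from -3.57 to -3.19) and *msx3* (-3.44 and -4.01), were lower. At any distance 4 of 65 target peaks were above 3, or 6.15%, and 14 below -3, or 21.5%. One of those above 3 was at *msx3* (3.33) and another was the only peak of *id2b* (4.56). Among the inhibitors, *bambib*, which encodes a decoy receptor, had an intronic peak at 5.31, on a *kdrl*:GFP- value of 0.55, close to the lowest. Its paralogue *bambia* had a peak at -6.85, on the lowest *kdrl*:GFP+ value. The rest within 20 kb lay near the BMP antagonist genes *nog1* (-3.12), *nog2* (3.57 and -3.28) and *grem2b* (3.06). They also lay near *dand5* (3.80 and 3.29), known in zebrafish as a Nodal antagonist, and the Smad co-repressor gene *skib* (3 intronic peaks, from -3.88 to -3.20). At any distance *bambia* had 13 peaks, 5 higher and 8 lower, with 1 above 3 and 2 below -3. Likewise *dand5* had 9 peaks, 4 higher and 5 lower, with 2 above 3 and 2 below -3.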

How the data were processed

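The authors used Trimmomatic 0.32 for trimming and BWA 0.7.12 for mapping to Zv9, called peaks per sample against the genomic DNA control, compared the groups with DiffBind (edgeR method) and annotated peaks with HOMER. The deposited group values are log2 mean normalised reads over the libraries of a population. Per the study's reporting summary, outlying *kdrl*:GFP+ libraries were left out. The groups compared held fewer *kdrl*:GFP+ and more *kdrl*:GFP- libraries than the labels list, and which libraries enter the means is not known here. Scaling, removal of duplicates and any Tn5 shift are not given in the sources used here. The depth of each library is unknown from the table, so no counting interval is given.

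Columns of the authors' own comparisons (fold, p-value, false discovery rate) were not used. A deposited gene table holds 6 columns of values per sample, named WT and Mo, none of which could be tied to a sample here, so they were left out. Its exon positions on Zv9 gave the gene positions of 9 genes; no position was used for *smad6b*, whose introns are those annotated in the peak table. Current symbols came from RefSeq accessions in the annotation of GRCz12tu, for 40693 peaks.

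Differences between group values were computed and counted with Python 3.11.15, numpy 2.4.6 and pandas 2.3.3, and the counting was tested on simulated data. The genes and lists were chosen with earlier results of these data known. Named peaks were, for each gene, the largest and the most negative difference, peaks at promoters, exons or transcription ends, and peaks inside the gene. Of the other pathway genes they were those beyond 3 or -3 within 20 kb. Other peaks named, such as those setting out the order along *acvrl1*, *bmp2b*, *smad1*, *smad5*, *smad7* and *id1*, were chosen after their values were seen. The alternatives were other ways to assign peaks to genes, limits on distance, thresholds of 2 and 4, and filters on low values.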

Additional observations from a re-analysis of the deposited data

How the results depend on the processing

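The share of higher peaks, 47.0% of the 83, ranged from 45.3% with *smad6b* by accession to 56.5% without *smad7*. The alternatives are overlapping sets of peaks from the same few genes, which are not independent, so this range is a description and no measure of stability. The median difference of -1.18 was not stable in sign, as the 2 directions are nearly equal in number and no peak lies near 0. It was 1.20 for the 45 peaks in a gene or within 20 kb of it, 0.068 for peaks within 100 kb of the promoter, 0.83 for peaks with a higher group value at or above the median, and 1.31 without *smad7*. The last was chosen after seeing the data, as was adding the 9 peaks inside the genes that carry another symbol. Peaks above 3 made up 26.7% of those in a gene or within 20 kb of it, beside 16.9% of the 83. Peaks below -3 were also more frequent there, at 24.4% beside 19.3%. Among all listed peaks within 20 kb of a promoter, a set defined otherwise, these shares were 20.4% and 12.1%. With other thresholds, 31.3% of the 83 were below -2 (29.3% of all peaks) and 9.64% below -4 (6.02% of all peaks), beside 19.3% below -3. In the other direction 24.1% were above 2 (28.9% of all peaks) and 10.8% above 4 (10.9% of all peaks), beside 16.9% above 3. No paired analysis was possible because the tables used here hold group means and no value per library. For the same reason no library could be left out, and the spread between libraries behind each difference is unknown.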
